A study of Rattus norvegicus with 4 samples.

Results

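The mitosis and kinetochore genes are 37 genes, fixed by symbol, whose products condense chromosomes, build the spindle, attach chromosomes to it and release them at anaphase. They and the gene lists below were chosen with earlier results of these data known. All 37 were among the 24005 genes of the deposited count table of cartilage from male Sprague Dawley rats (an outbred stock), and all 37 passed the filter on low counts, with 28 to 6897 counts in a library. The animals were 8 to 12 weeks old and weighed 140 to 230 g. The control group held 2 libraries labelled healthy, with the treatment label control. The osteoarthritis group held 2 libraries labelled osteoarthritis, with the treatment label XGS, the herbal preparation Xiaogu San. By the title and design text, the disease was induced with monosodium iodoacetate, which blocks glycolysis and kills chondrocytes. The labels name no dose or time of that agent or of XGS, and no library of osteoarthritis without the XGS label, so the effects of disease and preparation cannot be told apart. The design text speaks of normal mice where every library is labelled rat. Nothing in the labels says that libraries came from separate animals, so a p-value here reflects only how these samples vary, and that variation may be technical.

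A dividing cell builds up cyclins A and B, which switch on the kinase CDK1 and carry the cell into mitosis. Chromosomes are condensed, each centromere assembles a kinetochore that grips spindle microtubules, and a checkpoint delays anaphase until all are attached. The anaphase-promoting complex then marks securin and cyclin B for destruction. The genes of this programme are known to be transcribed late in the cell cycle and kept silent in resting cells, through a promoter element called the cell cycle genes homology region (CHR) and through CCAAT boxes. Chondrocytes of mature articular cartilage seldom divide, whereas blood precursors of the bone marrow divide often.

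The promoter stretches below are those of the 6 members with the smallest unadjusted p that hold a CHR letter pattern (TTTGAA, or the related TTTAAA) within 100 bases of the RefSeq start. Each is the 150 bases before the start, read along the gene, from RefSeq with build GRCr8. Capitals mark a CHR pattern or the box CCAAT, on either strand. A match to TTTGAA on the other strand reads TTCAAA here. A match to the box on the other strand reads ATTGG. The pattern TTTAAA reads the same on both strands. The stretches lie at chr10:28406327-28406476 on the minus strand for Pttg1, chr5:142483200-142483349 on the minus strand for Cdca8, chr20:19265143-19265292 on the plus strand for Cdk1, chr1:186147508-186147657 on the plus strand for Plk1, chr3:181560770-181560919 on the minus strand for Aurka and chr10:103571996-103572145 on the plus strand for Birc5.
Pttg1: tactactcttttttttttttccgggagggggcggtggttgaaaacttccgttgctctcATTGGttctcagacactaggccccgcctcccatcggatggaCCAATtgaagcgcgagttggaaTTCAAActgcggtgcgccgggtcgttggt
Cdca8: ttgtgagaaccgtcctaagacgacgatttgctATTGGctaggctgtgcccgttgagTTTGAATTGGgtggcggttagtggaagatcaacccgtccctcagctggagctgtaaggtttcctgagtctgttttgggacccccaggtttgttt
Cdk1: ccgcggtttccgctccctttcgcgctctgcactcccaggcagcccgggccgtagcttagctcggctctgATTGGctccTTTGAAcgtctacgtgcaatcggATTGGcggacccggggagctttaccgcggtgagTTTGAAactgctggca
Plk1: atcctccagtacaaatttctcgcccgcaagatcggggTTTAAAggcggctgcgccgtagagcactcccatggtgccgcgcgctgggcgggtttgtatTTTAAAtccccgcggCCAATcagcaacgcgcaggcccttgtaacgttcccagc
Aurka: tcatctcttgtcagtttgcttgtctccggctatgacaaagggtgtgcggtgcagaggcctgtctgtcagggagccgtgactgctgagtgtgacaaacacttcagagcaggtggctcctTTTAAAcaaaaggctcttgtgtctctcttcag
Birc5: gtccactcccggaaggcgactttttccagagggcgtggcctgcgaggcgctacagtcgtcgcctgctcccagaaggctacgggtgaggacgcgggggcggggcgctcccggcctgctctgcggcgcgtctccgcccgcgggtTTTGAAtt

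In Cdk1 a TTTGAA began 72 bases and another 16 bases before the start, each downstream of an ATTGG. In Cdca8 the TTTGAA at 94 bases shares its last base with an ATTGG. Birc5 had TTTGAA at 8 bases and Aurka had TTTAAA at 32 bases, and neither stretch held CCAAT. RefSeq windows of the 250 bases before the start were matched for 32 of the 37 members, all but Ccna2, Aurkb, Incenp, Tpx2 and Ube2c. TTTGAA on either strand was in 16 of the 32 windows (50.0%), against 4402 of 27457 genes in that table (16%). CCAAT was in 25 of 32 (78.1%), against 9416 of 27457 (34.3%). Both patterns stood in the same window for 16 of 32, against 5.76% of all genes. These 16 included Smc2, Smc4 and Hmmr, whose osteoarthritis libraries did not both lie below the controls. Windows of Bub1b, Mad2l1, Ndc80 and Nuf2, whose osteoarthritis libraries did, held neither pattern nor TTTAAA. Genes of this programme are known for these patterns, so a higher share was foreseeable and says nothing about these libraries. Any relation of the patterns to the levels was not tested. Each gene was taken by the start listed for it before any other, and a letter match is a description of the sequence, not a bound site.

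The question of the comparison was how transcripts of cartilage differ between healthy rats and rats labelled osteoarthritis. Nearly all mitosis and kinetochore genes stood lower in the osteoarthritis libraries, with a median log2 fold change, osteoarthritis over control, of -2.10, where the median of all 15282 tested genes was 0.15. For 33 of the 37, both osteoarthritis libraries lay below both controls in CPM (counts scaled to library size, with sizes adjusted by the TMM method), against 26.5% of all tested genes. Only Smc4 lay above both controls (30.0% of all tested genes did), and Smc2, Cenpe and Hmmr overlapped. Summed over the 37 genes the level was 1868 and 2305 CPM in the controls against 556 and 778 with osteoarthritis. Because the genes were chosen with earlier results known, their excess over the shares of all tested genes is a description and not a test. In bulk tissue such as this, fewer dividing cells and less RNA per cell cannot be told apart.

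With edgeR's quasi-likelihood test and Benjamini-Hochberg adjustment over all genes, 0 of the 37 passed the threshold of 0.05 in either direction, as did 0% of all tested genes. Before adjustment, 31 of the 37 were lower at p under 0.05, against 11.2% of all tested genes, and 0 higher, against 12.2%. DESeq2 called 25 lower (8.26% of all tested genes) and 0 higher (7.24%). By the fit, 20 of the 37 were at least 4-fold lower, as were 8.06% of all tested genes. Without a filter on low counts the quasi-likelihood test called 22 members lower (3.72% of the genes tested then), and with at least 10 counts required in every library it called 5 (0.858%). The likelihood ratio test of edgeR called 22 (6.40%). When osteoarthritis replicate 1 was left out, 18 members passed the quasi-likelihood test, all lower (6.95% of all genes tested then) and when replicate 2 was left out 26 did (5.73%). Without control replicate 2 the count at an unadjusted p under 0.05 was 20 of 37 (6.03%), and without osteoarthritis replicate 2 it was 30 (10.8%). No member had passed the main test, so the sentences below give levels and do not call any member changed.

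**Figure D1:**
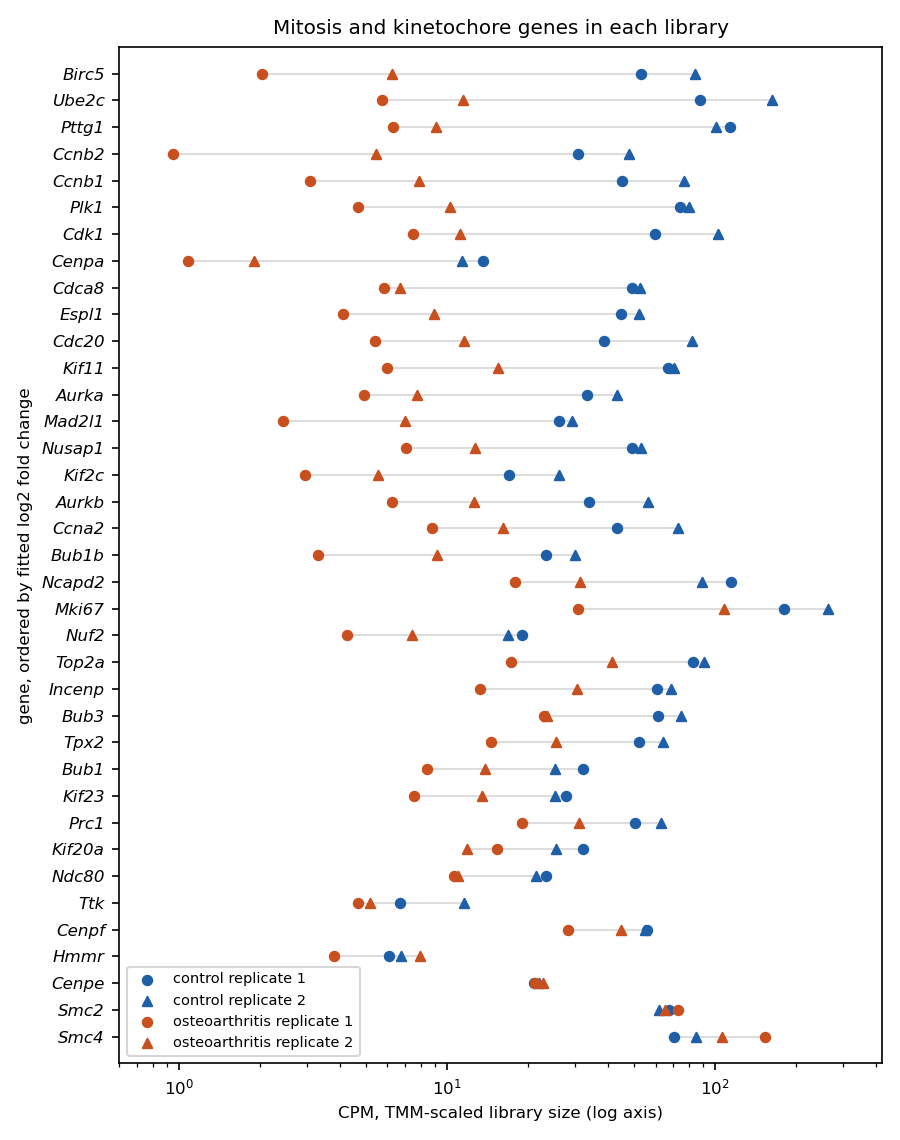
Level of each of the 37 mitosis and kinetochore genes in each library, in CPM on a log axis; circles are replicate 1 and triangles replicate 2, blue control and orange osteoarthritis, and grey lines join the lowest and highest library of a gene. The orange points lie left of the blue ones for 33 genes, and the 4 exceptions, Hmmr, Cenpe, Smc2 and Smc4, are at the bottom.

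The cyclins and kinases of mitotic entry were lower in every member, with fitted log2 fold changes of -2.22 to -3.63 and a median of -3.24 over 6 genes. Cdk1, the kinase that drives entry, measured 59.8 and 102.5 CPM in healthy cartilage and 7.50 and 11.2 in the osteoarthritis pair. The lowest control was several times the highest osteoarthritis value, and the fitted log2 fold change was -3.12 ± 0.45 (SE, n = 2 each, edgeR adjusted p = 0.0835, DESeq2 adjusted p = 3.57e-07). Its partner cyclin B1, Ccnb1, gave 45.1 and 76.7 CPM (healthy) versus 3.09 and 7.86 (osteoarthritis). Ccnb2, another B-type cyclin, reached 30.8 and 47.9 CPM in healthy cartilage, compared with 0.95 and 5.44 in the osteoarthritis group, the latter being 28 and 126 counts. The groups of both cyclins lay far apart, but the osteoarthritis libraries of Ccnb2 differed by 5.73-fold between themselves. Ccnb1 was 11.1-fold and Ccnb2 12.4-fold lower by the fit (edgeR adjusted p = 0.0858 and 0.120). Ccna2, cyclin A2, which acts from DNA synthesis to early mitosis, was 4.65-fold lower, the smallest difference of the 6. Plk1, the polo-like kinase of centrosome maturation, stood at 73.8 and 80.01 CPM in the controls against 4.65 and 10.2 with osteoarthritis, with a fitted log2 difference of -3.37 ± 0.49. Aurka, the kinase of spindle poles, stood at 33.3 and 43.3 CPM (healthy) against 4.92 and 7.74 (osteoarthritis).

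The genes of anaphase onset were lower by as much, with a median log2 fold change of -3.35 over 4 genes. Pttg1 encodes securin, which holds separase inactive until the checkpoint is met. It measured 114 and 101 CPM in healthy cartilage and 6.31 and 9.07 in the osteoarthritis pair, with a fitted log2 difference of -3.80 ± 0.37 (SE, n = 2 each, edgeR adjusted p = 0.0824), and its unadjusted p ranked 9 among all tested genes. Espl1, separase itself, gave 44.8 and 52.2 CPM (healthy) versus 4.10 and 8.95 (osteoarthritis). The enzyme and its inhibitor thus both stood lower, Espl1 by 7.44-fold and Pttg1 by 13.9-fold. Ube2c, the ubiquitin-conjugating enzyme of the anaphase-promoting complex, reached 87.6 and 163 CPM in healthy cartilage, compared with 5.73 and 11.5 in the osteoarthritis group. Cdc20, the activator of that complex, stood at 38.6 and 82.0 CPM in the controls against 5.39 and 11.6 with osteoarthritis. Control replicate 2 was about as far above control replicate 1 for Cdc20 and Ube2c (log2 differences of 1.08 and 0.89) as osteoarthritis replicate 2 was above replicate 1 (1.11 and 1.0).

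The chromosomal passenger complex corrects faulty attachments and then moves to the midzone for cytokinesis. Its 4 genes were lower, but not to one degree. Birc5, survivin, measured 52.8 and 84.2 CPM in healthy cartilage and 2.04 and 6.22 in the osteoarthritis pair, the lowest fold change of the 37 genes at -4.06 ± 0.67. Cdca8, borealin, had close replicates, at 49.1 and 52.4 CPM (healthy) and 5.83 and 6.70 (osteoarthritis), with a log2 fold change of -3.02 ± 0.34. Its unadjusted p ranked 26 among all tested genes. Aurkb, the kinase of the complex, was at -2.26, and the scaffold Incenp at -1.56, from 60.8 and 68.7 CPM (healthy) and 13.3 and 30.5 (osteoarthritis). Incenp thus stood at 33.8% of its control level and Birc5 at 6.01%.

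Among the 5 spindle checkpoint genes all lay below both controls (26.5% of all tested genes did). Of these 5, 4 were lower at an unadjusted p under 0.05 (11.2% of all tested genes). Mad2l1, which inhibits CDC20, gave 26.2 and 29.3 CPM (healthy) versus 2.44 and 7.0 (osteoarthritis), a fitted log2 difference of -2.56. Bub1b, which encodes BUBR1 of the same inhibitory complex, was at -2.10 and Bub1, a kinase of the outer kinetochore, at -1.37. Bub3, the adaptor of both BUB proteins, reached 61.5 and 75.0 CPM in healthy cartilage, compared with 22.9 and 23.6 in the osteoarthritis group. Its osteoarthritis libraries nearly coincided, and its fitted difference of -1.55 ± 0.31 had the second smallest standard error among the 37. Ttk, which encodes the checkpoint kinase MPS1, stood at 6.65 and 11.6 CPM in the controls against 4.65 and 5.14 with osteoarthritis; the groups lay close, and the unadjusted p was 0.202.

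Centromere and kinetochore genes spread most widely among the roles, from -3.06 to 0.03. Cenpa, the histone H3 variant that marks centromeres, measured 13.6 and 11.4 CPM in healthy cartilage and 1.09 and 1.90 in the osteoarthritis pair, or 32 and 44 counts in the latter (fitted log2 difference -3.06 ± 0.67). Ndc80 and Nuf2 encode partners in the complex that binds microtubules. Ndc80 gave 23.5 and 21.6 CPM (healthy) versus 10.6 and 11 (osteoarthritis), and Nuf2 reached 19.1 and 16.9 CPM in healthy cartilage, compared with 4.24 and 7.39 in the osteoarthritis group. Both were lower without overlap, at -1.06 and -1.63. Cenpf, a large protein of the outer kinetochore, stood at 55.9 and 55.0 CPM in the controls against 28.3 and 44.7 with osteoarthritis (unadjusted p = 0.146). Cenpe, the kinetochore motor that aligns chromosomes, measured 21.2 and 22.1 CPM in healthy cartilage and 21.3 and 22.7 in the osteoarthritis pair. Its 4 libraries were within a narrow band, with a log2 fold change of 0.03 ± 0.34 that took a negative sign under upper quartile scaling.

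Of the 8 spindle motors and microtubule proteins, 7 lay below both controls (26.5% of all tested genes did). Kif11, the motor that pushes spindle poles apart, gave 66.6 and 70.2 CPM (healthy) versus 5.97 and 15.5 (osteoarthritis), the lowest of the 8 at -2.67 ± 0.54. Nusap1, which bundles microtubules near chromosomes, was at -2.37 and Kif2c, a depolymerizing kinesin of centromeres, at -2.35. Tpx2, which targets Aurora A to the spindle, was at -1.53. The 3 genes of the midzone and cytokinesis were lower by less. Kif23 stood at -1.33, Prc1 at -1.17 and Kif20a at -1.08, with 2.12 to 2.51-fold lower levels. Kif20a reached 32.1 and 25.6 CPM in healthy cartilage, compared with 15.4 and 11.9 in the osteoarthritis group. Hmmr, a spindle protein that is also a hyaluronan receptor, stood at 6.09 and 6.71 CPM in the controls against 3.80 and 7.95 with osteoarthritis, so its osteoarthritis libraries lay on either side of the controls.

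The chromosome structure genes split. Mki67, the antigen Ki-67 used to count cycling cells, measured 181 and 265 CPM in healthy cartilage and 30.8 and 108 in the osteoarthritis pair (fitted log2 difference -1.68 ± 0.66, unadjusted p = 0.0490). Top2a, the topoisomerase that untangles sister DNA, gave 82.9 and 90.7 CPM (healthy) versus 17.3 and 41.2 (osteoarthritis). In both genes osteoarthritis replicate 2 stood between replicate 1 and the controls. Condensin I is built of the SMC2 and SMC4 arms with NCAPD2 and other subunits. Ncapd2 reached 114 and 89.3 CPM in healthy cartilage, compared with 18.0 and 31.4 in the osteoarthritis group, with a fitted log2 difference of -2.04 ± 0.41. Smc2 stood at 67.1 and 61.7 CPM in the controls against 72.9 and 64.9 with osteoarthritis, and its groups overlapped. Smc4 measured 70.5 and 84.8 CPM in healthy cartilage and 154 and 107 in the osteoarthritis pair, with a fitted log2 difference of 0.75 ± 0.35 (edgeR adjusted p = 0.277). SMC2 and SMC4 are shared with condensin II.

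Per length, in the authors' FPKM, the order of the genes differed between the groups. In control libraries Pttg1 had 125 and 101 FPKM and Ube2c had 116 and 197 FPKM, the highest levels of the 37, followed by Birc5 and Cdk1. In osteoarthritis libraries Smc4 was highest, with 47.6 and 24.3 FPKM, and Bub3 next, with 20.7 and 15.7 FPKM, while Pttg1 had 8.30 and 8.83 FPKM and ranked 6 and 7. Birc5 ranked 3 in both controls and 24 and 12 in the osteoarthritis libraries. Within condensin I, the FPKM of Smc4 divided by that of Ncapd2 was 0.72 and 1.11 in control and 10.0 and 3.97 in osteoarthritis. The ratio of Cdk1 to Ccnb1 differed less, at 3.47 and 3.50 in control and 6.35 and 3.72 in osteoarthritis. Smc2 over Ncapd2 was at 0.49 and 0.58 in control and 3.41 and 1.74 in osteoarthritis. Ndc80 over Nuf2 stood at 0.63 and 0.65 in control and 1.29 and 0.76 in osteoarthritis. Kif11 over Tpx2 was lower with osteoarthritis, at 0.25 and 0.37 against 0.77 and 0.67 in control. So was Pttg1 over Espl1, at 11.4 and 7.50 against 18.8 and 14.3.

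**Figure D2:**
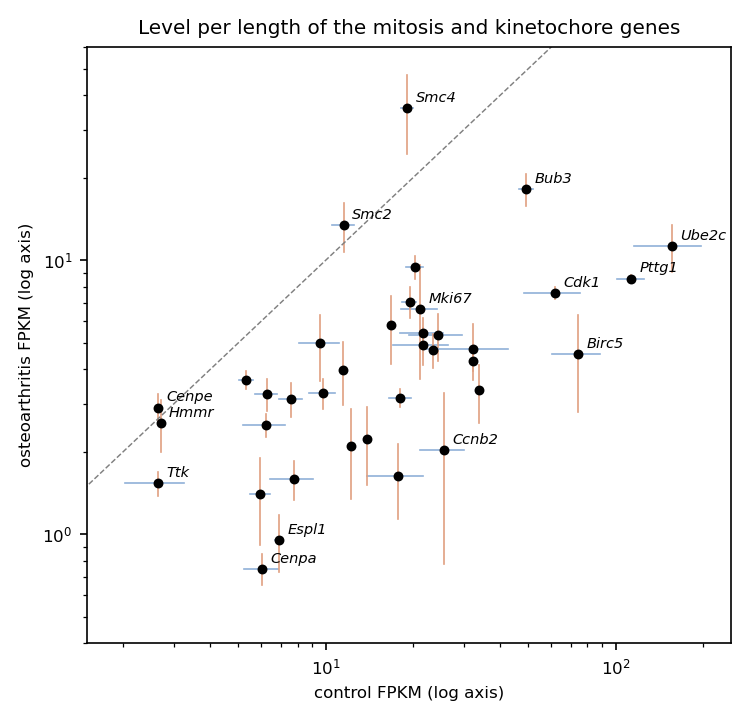
Level per length of the 37 genes, mean FPKM of the 2 control libraries against that of the 2 osteoarthritis libraries, on log axes; points are means and each line joins the libraries of a group and the dashed line marks equal levels. Smc4 and Smc2 lie above the dashed line with Cenpe, and Pttg1, Ube2c and Birc5, the highest in control, lie far below it.

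The osteoarthritis libraries were not alike. In 34 of the 37 genes osteoarthritis replicate 2 was above replicate 1 (51.4% of all tested genes were), and in 15 at least 2-fold. Against the control mean the median log2 difference of the 37 genes was -2.85 in replicate 1 and -1.70 in replicate 2. Mki67 differed by 3.51-fold and Birc5 by 3.06-fold between these libraries. Kif20a, Smc2 and Smc4 ran the other way. Between the controls, 27 of the 37 were higher in replicate 2, with a median log2 difference of 0.18. The median of all tested genes was -0.00. The shares of all tested genes for the counts of 15 and 27 were not computed.

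Gene length ran along with the differences. Among the 37 genes the log2 fold change had a Spearman correlation of 0.61 with the length implied by FPKM, and among all 15282 tested genes one of 0.38; the genes share the same 4 libraries. The 10 members under 2000 bases had a median of -3.07 and the 11 over 4000 bases a median of -1.57, where all genes of those lengths had -0.40 and 0.76. The 16 members of 2000 to 4000 bases had a median of -1.87, where all genes of that length had 0.23. In each length class the median of the members was below that of all genes. The part of gene length in the levels was not tested. When each library's trend with length was taken into the edgeR fit as an offset, the median of the 37 was -2.31. That choice was made after the data were seen. In that fit 33 were lower at an unadjusted p under 0.05 (9.72% of all genes). There 35 lay below both controls. The share of all genes that did so in that fit was not computed, so this count has no background to be read against. Cenpf had a log2 fold change of -1.62 in that fit, Cenpe -0.84, Smc2 -0.55 and Smc4 0.35.

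**Figure D3:**
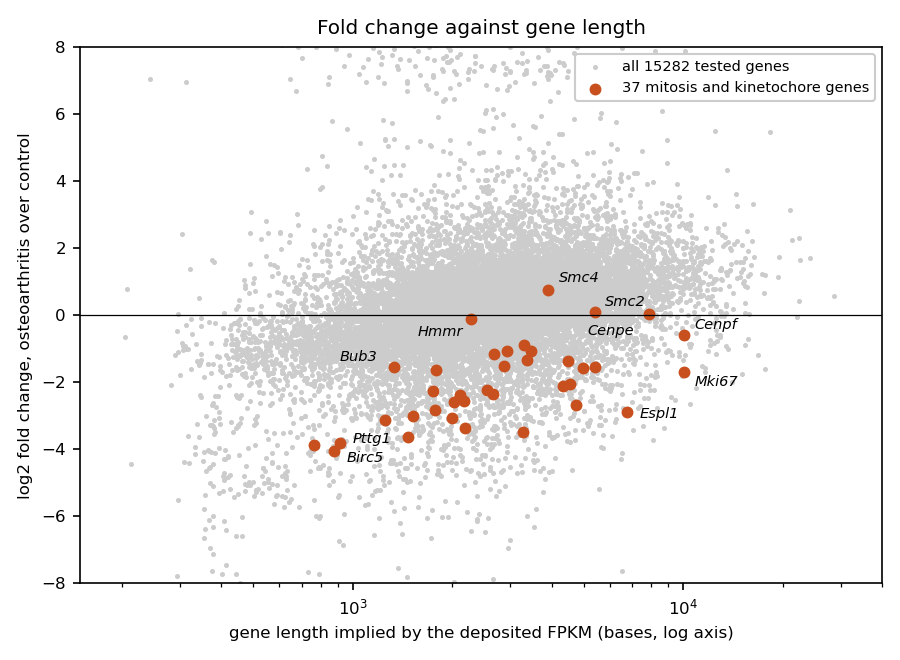
Log2 fold change, osteoarthritis over control, against gene length in bases on a log axis, for the 37 mitosis and kinetochore genes (orange) and all 15282 tested genes (grey, of which 167 fall outside the axes). The shortest members, such as Birc5 and Pttg1, are lowest, and the long genes Cenpe, Cenpf and Smc2 lie between -0.60 and 0.10, while Mki67 and Espl1, also long, are not.

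Other genes of the same machinery, from lists by function, were mostly lower as well. Of 36 tested kinetochore and centromere genes outside the 37, 29 lay below both controls (26.5% of all tested genes did), with a median of -1.64. At an unadjusted p under 0.05, 21 were lower and 1 higher, beside 11.2% and 12.2% of all tested genes. Spc24, of the NDC80 complex, gave 22.0 and 33.4 CPM (healthy) versus 2.14 and 2.94 (osteoarthritis). Pmf1, of the MIS12 complex, was at -2.68, and Cenpm and Cenpw, of the inner kinetochore, at -3.41 and -3.52. Mis12, named after its value was seen, was the one higher, at 1.26. Of 27 spindle and cytokinesis genes, 21 lay below both controls and 14 were lower at that p, beside 26.5% and 11.2% of all tested genes. The 4 with the smallest p were the kinesins Kif18b (-3.35), Kif22 (-2.58) and Kifc1 (-2.93) and Tacc3 (-2.0), which steadies spindle fibres. No gene of these lists passed edgeR's test over all genes. DESeq2 called 16 of the 36 and 10 of the 27 lower (8.26% of all tested genes).

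Of 16 condensin and cohesin genes, 6 lay below and 5 above both controls, where 26.5% and 30.0% of all tested genes did. Their median was -0.25. At an unadjusted p under 0.05, 4 were lower and 2 higher, beside 11.2% and 12.2% of all tested genes. Ncaph, the kleisin of condensin I, reached 34.9 and 27.8 CPM in healthy cartilage, compared with 5.36 and 9.51 in the osteoarthritis group, lower by a log2 fold change of -2.08. Ncapd3 of condensin II was at -1.37 and Cdca5, sororin, which protects cohesion until anaphase, at -2.54. Nipbl, the loader of cohesin, which also works in cells that do not divide, stood at 56.5 and 60.2 CPM in the controls against 227 and 182 with osteoarthritis. The fitted log2 difference was 1.81 ± 0.34 (edgeR adjusted p = 0.0881). The 17 genes of the anaphase-promoting complex and its partners had a median of -0.08, with 7 below and 3 above both controls, again beside 26.5% and 30.0% of all tested genes. At that p, 4 were lower and 0 higher, beside 11.2% and 12.2% of all tested genes. The 4 with the smallest p were the partners Ube2s (-2.02), Fbxo5 (-2.04) and Fzr1 (-1.46), and the subunit Anapc15 (-1.37).

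Regulators of mitotic entry were mostly lower, 11 of 16 below both controls (26.5% of all tested genes were) with a median of -0.96. At an unadjusted p under 0.05, 7 were lower and 1 higher, beside 11.2% and 12.2% of all tested genes. Mybl2, the B-MYB factor that acts at CHR promoters, measured 66.7 and 85.8 CPM in healthy cartilage and 5.09 and 11.2 in the osteoarthritis pair (-3.23 ± 0.50). Cks2, a small partner of CDK1, was at -3.52, Ccnf at -2.72 and Pkmyt1, an inhibitory kinase of CDK1, at -1.44. The 20 DNA replication genes, the nearest relatives by function, were all below both controls, their median being -1.94. At that p, 18 were lower. The shares of all tested genes were 26.5% below both controls and 11.2% lower at that p. Summed, they were at 20.3% and 31.0% of the control mean in the osteoarthritis libraries, and the 37 mitosis and kinetochore genes at 26.6% and 37.3%. The difference between these 2 sets was not tested.

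Markers of marrow blood cells were lower in the same libraries. All 12 erythroid markers lay below both controls, where 26.5% of all tested genes did. Their summed level was 3992 and 4950 CPM in the controls against 56.3 and 554 with osteoarthritis. Alas2, the heme synthesis enzyme of red cells, gave 1034 and 952 CPM (healthy) versus 13.1 and 75.9 (osteoarthritis), and Epor, the erythropoietin receptor, was at -3.96. All 11 tested neutrophil and precursor markers lay below as well (summed 7668 and 12019 CPM in the controls, 121 and 633 with osteoarthritis), among them Mpo at -3.97 and Lcn2 at -4.14, and so did all 10 precursor B cell markers (408 and 558 CPM, then 21.8 and 38.4), among them Vpreb1 at -6.04 and Cd79b at -4.26. None of these markers was at 0 counts in an osteoarthritis library. Osteoarthritis replicate 2 was above replicate 1 for 34 of the 37 mitosis and kinetochore genes, where it was for 51.4% of all tested genes. It was above for 12 of 12 erythroid, 11 of 11 neutrophil and 8 of 10 precursor B cell markers. The same order held for 7 of 7 tendon and ligament, 8 of 8 skeletal muscle and 9 of 14 chondrocyte markers, and for 16 of 20 DNA replication genes. It held for 5 of 10 osteoblast and osteocyte, 1 of 8 endothelial and 0 of 8 adipocyte markers. The size of the difference varied. Its median log2 value was 0.85 for the 37 genes, 3.34 for erythroid, 3.12 for neutrophil and 0.60 for precursor B cell markers. For tendon and ligament markers it was 4.35, for skeletal muscle 1.15, for DNA replication genes 0.58 and for all tested genes 0.04. The part of marrow blood cells in the lower level of the 37 genes was not tested.

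Tissue markers differed too. The 14 chondrocyte markers summed to 27649.5 and 37924 CPM in the controls against 4281 and 10705 with osteoarthritis. Cartilage transcripts were thus present in all 4 libraries. Of the 14, 9 lay below both controls (26.5% of all tested genes did) and the other 5 overlapped. By the fit 11 of the 14 were lower and 3 higher, with a median of -2.71. Of all 15282 tested genes, 6868 were lower. The 2 with the smallest p were Chad, chondroadherin, at -4.69 and Hapln1, link protein, at -2.69. Of 10 osteoblast and osteocyte markers 7 lay below both controls (26.5% of all tested genes did), among them Bglap at -11.57 and Mepe at -6.45. By the fit 9 of the 10 were lower and 1 higher, with a median of -3.91, where 6868 of all 15282 tested genes were lower. The sum of the list nonetheless stood at 88.7% and 450% of the control mean, with the controls themselves at 35.3% and 165%. That sum does not describe most of the list. Adipocyte markers stood at 695% of the control mean in osteoarthritis replicate 1 and 5.76% in replicate 2, where the controls were at 142% and 57.6%. Tendon and ligament markers stood at 16.1% and 366%, with the controls at 96.5% and 103%. Skeletal muscle markers stood at 10.9% and 27.5%, and at 191% in control replicate 1 against 8.54% in control replicate 2. Endothelial markers stood at 197% and 117%, and the controls at 138% and 62.2%, so the groups overlapped. The part of the tissue mixture in the levels of the 37 genes was not tested.

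**Figure D4:**
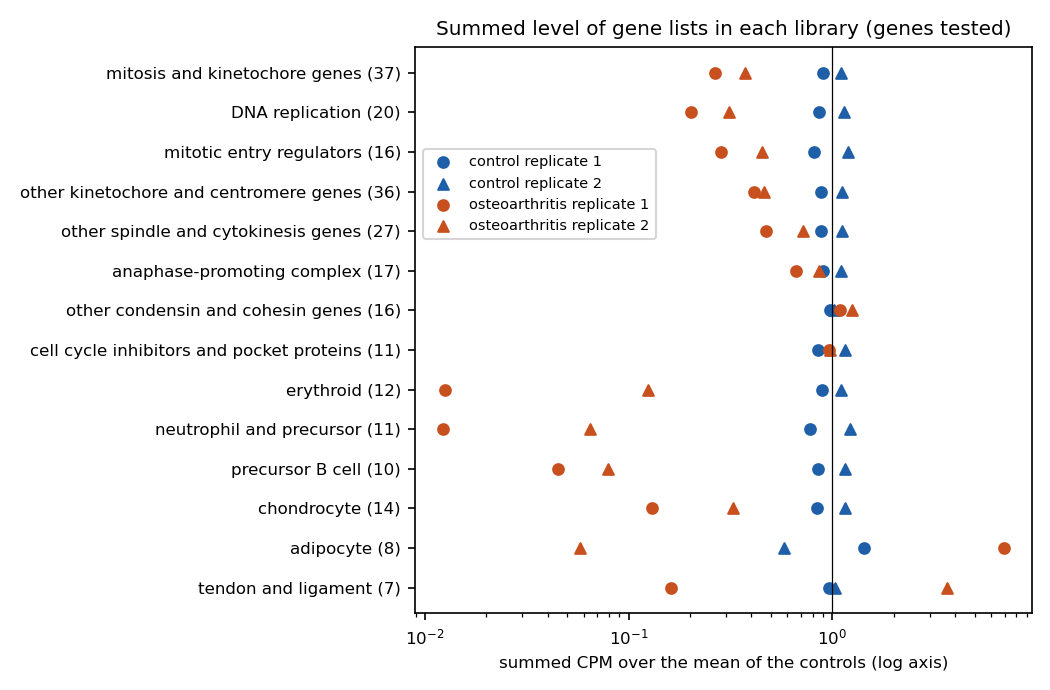
Summed CPM of gene lists in each library divided by the mean of the 2 controls, on a log axis; blue is control, orange osteoarthritis, circles replicate 1 and triangles replicate 2, with the number of genes tested in brackets. The 37 genes lie at 26.6% and 37.3% of the control mean and the erythroid markers at 1.26% and 12.4%. The condensin and cohesin genes lie at 109% and 125%. The osteoblast and osteocyte, skeletal muscle and endothelial lists are not drawn.

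Some counts are uncertain. RefSeq names pseudogene copies of 9 members, Ccnb2, Cdk1, Aurka, Mki67, Tpx2, Kif11, Prc1, Nusap1 and Ube2c, which can share reads with them. The spans of Plk1, Aurka, Kif11, Kif20a, Nusap1 and Smc4 overlap another gene of the table (Ern2, Fam210b, Ide, Cdc23, Ndufaf1, and Mir15b with Mir16). Strand handling is not stated, so reads from a shared stretch may not be told apart. Whole gene spans were compared, and whether exons or strands coincide was not checked.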

How the data were processed

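Total RNA of cartilage was isolated with TRIzol and RNeasy columns, and polyA libraries were made with Illumina protocols, per the labels' protocols. The submitters' processing notes name fastp, TopHat and the build hg38, a human build, while the symbols are rat symbols; for the counter, the annotation and strandedness, the sources used here give nothing. The authors deposited raw read counts per gene and FPKM values, which equal those counts divided by a gene length and the library total. Depth was 24492412 to 28270779 counts per library.

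Groups follow the disease label. Replicate numbers are not from the labels and were given here by the order of the samples within a group. Counts were fitted with edgeR 4.0.16 in R 4.3.3 (filterByExpr, TMM, quasi-likelihood F test, two-sided, Benjamini-Hochberg, threshold 0.05), which tested 15282 of 24005 genes on all 4 libraries. Standard errors are the log2 fold change over the root of F. An exact permutation test of 2 against 2 cannot go below 0.333, so none is given. DESeq2 1.42.0, limma 3.58.1 (voom, and trend on log2 FPKM, adding 1 or 0.1), other scalings and filters, and fits without each library were alternatives; with 1 library left in a group, that lone sample is taken to vary as the other group does. Scripts were run on simulated counts, and recovery of set fold changes was required only at a dispersion (spread between replicates beyond counting) of 0.1. The common dispersion of these data was 0.391, so that check does not show how often real differences pass here. The 37 members were named by the rule, with up to 4 genes per pathway list and up to 2 per marker list by smallest unadjusted p. The members and lists were chosen with earlier results of these data known. Older symbols were matched through RefSeq. Intervals for counting error were not computed, since libraries within a group are the replicates. Figures used matplotlib 3.10.9.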

Additional observations from a re-analysis of the deposited data

How the results depend on the processing

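The number of members passing edgeR's adjusted threshold was 0 and remained 0 under DESeq2 size factors, library size alone, upper quartile factors, TMM without globin genes, limma-voom, both limma-trend fits on FPKM and the length offset. It was 22 with no filter on low counts, 5 with at least 10 counts in every library, 25 with DESeq2 and 22 with edgeR's likelihood ratio test. Leaving out 1 library gave 0 to 26. The causes were not tested. The count lower at an unadjusted p under 0.05 was 31 and ranged from 20 to 30 with 1 library left out. The count below the controls was 33 to 35 and the median log2 fold change -2.84 to -1.73 under all alternatives run. The median of all tested genes was 0.27 with library size alone and 0.05 with upper quartile factors; that of the members was -2.08 and -2.24. Over 16 alternatives, 34 of the 37 members kept the sign of their fold change. The exceptions were near 0. Cenpe was at -0.08 with upper quartile factors, -0.05 with at least 10 counts in every library, -0.84 with the length offset, and -0.06 and -0.01 without control replicate 1 and without osteoarthritis replicate 2. Smc2 was at -0.55 with the length offset and -0.02 without osteoarthritis replicate 1, and Hmmr at 0.28 without the latter. Leaving out 1 library gave ranges of -0.06 to 0.07 for Cenpe, -0.02 to 0.19 for Smc2 and -0.74 to 0.28 for Hmmr. TTTGAA or TTTAAA was in 26 of 32 promoter windows, and TTTGAA alone in 14 of 32 within 100 bases. No paired analysis was possible because the labels give no replicate numbers.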

Other observations

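Of 11 tested cell cycle inhibitors and pocket proteins, which hold cells out of division, 2 lay below and 2 above both controls, no larger a share than the 26.5% and 30.0% of all tested genes. They had a median log2 fold change of 0.12 and a summed level of 96.3% and 97.0% of the control mean in the osteoarthritis libraries. E2f4, a repressor partner of the pocket proteins, reached 88.9 and 107 CPM in healthy cartilage, compared with 42.3 and 52.8 in the osteoarthritis group (fitted log2 difference -1.04 ± 0.32, edgeR adjusted p = 0.155). Rb1, the retinoblastoma protein, was at -0.67, Rbl2, its relative p130, at 0.40, and Cdkn1c, the inhibitor p57, at 0.75, from 31.2 and 100.3 CPM (healthy) and 128 and 94.1 (osteoarthritis). Cdkn1a, the inhibitor p21, named after its values were seen, stood at 10.8 and 33.5 CPM in the controls against 25.1 and 53.0 with osteoarthritis, and the groups overlapped. Wee1, a kinase that restrains CDK1, was likewise named after its value was seen; it measured 28.3 and 31.8 CPM in healthy cartilage and 49.8 and 102 in the osteoarthritis pair (1.34 ± 0.44, edgeR adjusted p = 0.168).

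Among the DNA replication genes, Cdt1, which licenses origins, gave 68.5 and 84.0 CPM (healthy) versus 6.75 and 8.04 (osteoarthritis), with a fitted log2 difference of -3.37 ± 0.35 (edgeR adjusted p = 0.0824). Fen1, a flap endonuclease, was at -2.53, and Mcm7 and Mcm3, subunits of the replicative helicase, at -2.18 and -1.93. DESeq2 called 15 of the 20 lower (8.26% of all tested genes).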
